A study of Synthetic plasmid and Mus musculus with 4 samples.

Results

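B141 is a target of class B in a library of barcoded reporter constructs that was assayed in mouse retina and mouse cerebral cortex. Its constructs were taken as all those that the construct table assigns to B141, 40 of 45670. A minimum of 10 counts per DNA library left 36 of them in retina and 35 in cortex. The site was chosen by its measured retina RNA/DNA, as 1 of 2 B regions called higher in a fit over all regions, so its retina values are given as a description with no test, and the cortex values are tested. The name "active in retina" rests on the sum over the site set beside other B sites, which was high by choice. It did not hold for most of the fragments. RNA was counted in all 3 retina replicates for 1 of the 36 constructs, or 2.78%. Most constructs of the library lacked such RNA too, as it was found for 5.99% of all, 0.73% of the other B and 22.1% of the R constructs.

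A cis-regulatory element is a stretch of DNA that raises or lowers transcription from a promoter when transcription factors of the cell bind it. In this assay each fragment sits in a plasmid beside a reporter that carries a short barcode, and the number of barcode reads in RNA relative to DNA measures how much transcript each delivered copy gave. Fragments that tile a site from different starts and ends, and in either orientation, can show which stretch is needed for activity. The letter B is read, from knowledge of the study, as marking DNase hypersensitive sites of brain, and R, H and L as those of retina, heart and liver, while the deposited tables name the letters alone.

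Fragments came from sonicated genomic DNA of C57BL/6J mice that was enriched with RNA baits. Retinas of CD-1 mice were electroporated ex vivo at postnatal day 0 and kept in culture for 8 days, and each of the 3 biological replicates pooled 5 retinas. Cortex of CD-1 mice was injected with the library in adeno-associated virus at an age of 4 to 6 weeks, and GFP-positive tissue was dissected 4 to 5 weeks later, with 1 animal in each of 3 replicates. RNA and DNA were both counted in each replicate. The sum of counts was between 7025820 and 10411511 for RNA and between 6501061 and 12147398 for DNA of retina. In cortex it was between 4000439 and 9674859 for RNA and between 3999412 and 10769648 for DNA. Tissue, age, delivery and sequencing lane changed together, so their effects cannot be told apart.

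The B141 window covers 300 bases of chromosome 1, chr1:133207026-133207325 in the mouse build mm9, and its fragments together span 1138 bases from 133206497 to 133207634. No gene annotation of that build was used here. Fragments were 338 to 645 bases long with a median of 460. They numbered 17 on the plus and 23 on the minus strand. The whole window lay in 14 fragments and part of it, at least 80 bases, in the other 26. The nearest fragment of another target, B548, lay 40202 bases away. Constructs are numbered below from 1 to 40 by the start of their fragment. Those shown next are the 8 with the highest RNA/DNA in retina, the 3 with most retina DNA and no retina RNA, the 4 with the highest RNA/DNA in cortex and the construct with the second most DNA, which was added after its values were seen. The barcode of each is written as in the deposited table, with capitals on a leading run of 5 or more C:
construct 2: caccgaaacgtgcag
construct 4: ctgatcttgtgacgc
construct 6: ttttctatcgagtgc
construct 7: accccactgtggtca
construct 9: cacgttctgcaccac
construct 15: aggtcattgagtgtt
construct 23: acctccacactcggc
construct 25: tccgcctccacccat
construct 26: catgattgtagtact
construct 28: CCCCCgtcactcccc
construct 31: acaatcgtcatcaac
construct 33: CCCCCCCttcttctc
construct 34: tcacgtgattgcgtg
construct 38: gtgggtggaccgggt

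The summed retina RNA of B141 was low in absolute terms and high for a B site. Over the 36 constructs it came to 1906, 3305 and 3476 RNA counts in replicates 1, 2 and 3, beside 12780, 7960 and 12270 DNA counts. The share of a library's RNA taken by the site was 0.0367% ± 0.0107 and its share of DNA 0.116% ± 0.0076 (SD, n = 3). The RNA share divided by the DNA share was thus 0.253, 0.391 and 0.298, a mean of 0.314 ± 0.0705 (SD, n = 3). All 3 values lay below 1, where a site takes as much of the RNA as of the DNA. They also lay above those of the other B constructs, at 0.0882 ± 0.0053, and of H and L constructs, at 0.0726 ± 0.0072, while R constructs took 94.2% of the RNA and reached 3.77 ± 0.035. The fold of B141 over the other B constructs was 3.05, 4.43 and 3.19 in the 3 replicates.

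In the edgeR fit of regions with at least 5 constructs, which sets the zero of its log2 scale by trimmed mean of M values, the log2 RNA/DNA of B141 in retina was 1.81 (SE 0.49). The median of all 2031 regions was -1.96 and that of the 439 B regions -2.14. B141 ranked 213 among all regions and 4 among B regions. An adjusted p under 0.05 with higher RNA was reached by 179 regions, 8.81% of those fitted, with B141 among them by choice, and with lower RNA by 3, or 0.148%. With total library size in place of the trimmed mean, its log2 was -1.74 and the median region lay at -5.49. B141 was then called lower, as were 45.5% of all regions, so the sign and the call depend on the scaling, while the distance to the median region was 3.77 and 3.75. Without retina replicate 2 the value was 1.70 and no longer past the threshold. Of the B regions above it, B352 had 3.52 (SE 0.58), B479 had 2.99 (SE 1.13) and B170 had 2.04 (SE 0.73), and of these B352 alone was past the threshold. Next below lay B969 at 1.79 (SE 2.14), which was not. B352 had 7 passing constructs, and 3 of them had RNA. Its largest construct gave 98.3% of its RNA, whereas the largest construct of B141 gave 38.9% of the RNA of B141. That share was 25.5% for B170 and 46.2% for B479. Its median was 47.8% over 133 B sites with at least 20 passing constructs.

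Retina RNA was detected for many B141 constructs, mostly in single replicates, but most of its counts came from few of them. At least 50% of the counts came from 2 constructs and at least 90% from 7. Of the 36 constructs, 17 had RNA in at least 1 replicate, which is 47.2%, beside 35.7% of all constructs and 29.6% of the other B constructs. RNA in all 3 replicates was found for 1 construct, or 2.78%, beside 5.99% of all constructs and 0.73% of the other B constructs. In 6 constructs RNA was found in 2 replicates, in 10 it was found in 1, and in 19 none was counted. Nonzero values numbered 25 of 108, and 8 of these were 4 counts or fewer. DNA depth moved with these shares, since constructs with RNA had a median of 702 summed DNA counts and those without 422. In the edgeR fit of single constructs none of the 36 was called higher, where 2.33% of all constructs were. Called lower were 19, the same 19 that had no RNA, where 64.9% of all constructs were. These calls use the values by which the site was chosen and are a description only. Among constructs with 368 to 842 DNA counts, the middle range of the site, RNA was seen for 10 of 18 in B141, for 25.6% of 3002 other B constructs and for 25.7% of 6838 H and L constructs. RNA of B141 constructs agreed poorly between replicates, with Spearman correlations of 0.10, 0.28 and 0.25 over the 36 constructs, against 0.55 to 0.68 for their DNA.

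Construct 28 was the one with RNA in every retina replicate. Its fragment, chr1:133206912-133207377 on the minus strand, held the whole window. It had 804, 1431 and 1147 RNA counts in replicates 1 to 3, beside 2564, 1023 and 2721 DNA counts. The RNA share was 0.531, 1.32 and 0.443 times the DNA share, a mean of 0.764 ± 0.481 (SD, n = 3), with replicate 2 the highest. It gave 42.2%, 43.3% and 33.0% of the RNA of the site from 20.1%, 12.9% and 22.2% of its DNA. No other B141 construct had as much DNA over the 3 replicates, although construct 33 had more in replicate 2, with 1251 counts. The 6308 summed counts of construct 28 ranked 58 among the 36005 constructs of the retina, where the median was 558. Among other B constructs with at least 3000 summed DNA counts, 11 of 206 had RNA in all 3 retina replicates, and among such H and L constructs 23 of 426 had. Depth and RNA in all replicates thus stood together in construct 28, and the part of depth in its RNA was not tested. The authors' deposited table gives it a mean log2 RNA/DNA of -0.56 in retina, which 4.64% of all constructs reached or exceeded, and their value for a construct without RNA is -9.97.

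Constructs that covered nearly the same bases as construct 28 did not show the same RNA, at lower DNA depth. A reciprocal overlap of at least 80% was found with 8 other constructs that passed the DNA minimum. RNA was counted for 3 of them, beside 47.2% of B141 constructs and 35.7% of all constructs, so the count lay near the library share. Their summed DNA counts were 172 to 2071, beside 6308 for construct 28, and the part of depth was not tested. Construct 25, which begins 37 bases before construct 28 and ends 23 bases before its end on the same strand, had 0, 651 and 0 RNA counts in replicates 1 to 3, beside 278, 75 and 168 DNA counts. Construct 37 had 0, 154 and 0 RNA counts and construct 29 had 0, 0 and 4. The remaining 5 had none. Among them was construct 31, at chr1:133206946-133207335, which lies on the same strand inside construct 28 and lacks 34 bases at one end and 42 at the other. It had 655, 560 and 856 DNA counts and no RNA count in retina. Against a floor of 3 counts over the 3 RNA libraries, its RNA/DNA was at least 370-fold lower than that of construct 28. Construct 34, also among these 5 and with 1295 DNA counts, was at least 231-fold lower. Construct 38 lies on the plus strand and has less than 80% reciprocal overlap with construct 28, so it is not among the 8. With 1254 DNA counts it was at least 224-fold lower. Over all 105 pairs of passing B141 constructs with at least 80% reciprocal overlap, both had retina RNA in 21 pairs, 1 of the 2 had it in 48 and neither in 36. In 14 pairs both had RNA in the same replicate. With RNA in 17 of the 36 constructs, mixed pairs are frequent at any overlap. The counts were not compared with those of pairs that overlap less. Counts of reads carry no molecular identifiers here, so these floors cover counting error only.

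Most of the other retina RNA came from 5 constructs with a large count in 1 replicate. Construct 4, chr1:133206650-133207159 on the minus strand, had 0, 0 and 1030 RNA counts beside 267, 248 and 72 DNA counts. Its RNA share in replicate 3 was 15.0 times its DNA share, the highest single value of the site, in the library where its DNA was lowest. Construct 9, chr1:133206742-133207105 on the plus strand, had 993, 0 and 0 RNA counts beside 254, 34 and 315 DNA counts, and gave 52.1% of all B141 RNA in replicate 1. Construct 6, chr1:133206696-133207226 on the plus strand, had 0, 0 and 921 RNA counts beside 620, 347 and 509 DNA counts. Construct 23, chr1:133206865-133207453 on the minus strand, had 0, 736 and 1 RNA counts beside 188, 249 and 265 DNA counts. With construct 25 and construct 28 these made 6 constructs with a value of 651 or more, and together they held 88.8% of the site's RNA. Such a value was reached by 16.7% of B141 constructs, by 2.19% of other B constructs, by 1.95% of H and L constructs and by 22.2% of R constructs. Of 133 B sites with at least 20 passing constructs, 1 had more such constructs than B141, and the median site had 0. The threshold of 651 was taken from the site's own values, so the comparison describes them only.

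The remaining constructs with retina RNA had lower counts. Construct 2, chr1:133206546-133207112 on the minus strand, had 0, 129 and 259 RNA counts beside 472, 213 and 266 DNA counts. Construct 7, chr1:133206710-133207106 on the minus strand, had 14, 0 and 112 RNA counts beside 65, 162 and 323 DNA counts. Neither had RNA in all replicates. Construct 33, the second most abundant at 4509 DNA counts, holds the whole window on the minus strand and had 90, 0 and 1 RNA counts, an RNA share of 0.0297 ± 0.0509 times its DNA share (SD, n = 3). Despite its depth it thus lay below the mean of the other B constructs. Constructs without RNA had 90 to 2071 summed DNA counts, so a count of 0 allows RNA shares of up to 0.00175 to 0.0402 times their DNA shares, and 7 of the 19 held the whole window.

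The DNA minimum left the other 4 constructs out of the retina fit, and none of them had retina RNA. Construct 21 had no DNA count in any retina library. Construct 11 had 30, 0 and 43 DNA counts, construct 32 had 10, 0 and 1, and construct 40 had 24, 6 and 120. Just inside the minimum lay construct 8 with 41, 10 and 39 DNA counts and construct 19 with 12, 138 and 272, also without RNA.

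The fragments with the lowest starts formed an unbroken run with retina RNA. The run held 7 fragments that begin from 133206497 to 133206710, with 16 to 1030 RNA counts in sum, and of the 29 that begin further on 10 had RNA. These 7 share the 397 bases from 133206710 to 133207106, which reach 81 bases into the window. They held 30.7% of the site's RNA and 17.9% of its DNA, 5 lay on the minus and 2 on the plus strand, and in 3 of them RNA was found in 1 replicate and in 4 in 2 replicates. Their summed DNA counts were 550 to 1476, above the median of 422 of constructs without RNA, and the part of depth was not tested. The group was drawn to end where the run ends, after the values were seen, so its count of 7 was fixed by the grouping. By the same rule it holds no fragment without RNA and the next fragment has none. Its share of the RNA and the contrast with the later fragments were thus favoured too and are a description only. Construct 14, which begins at 133206769 and reaches 101 bases into the window, had 829 summed DNA counts and no RNA, and construct 8, which begins at 133206716, had 90 and none. Among all 8 fragments that reach no more than 101 bases into the window, RNA was seen for 6, and their RNA share was 0.859, 0.221 and 0.199 times their DNA share. For the 15 other fragments with part of the window RNA was seen for 5, at 0.0006, 0.0026 and 0.717. The means were 0.427 ± 0.375 and 0.240 ± 0.413 (SD, n = 3), so the groups differed by less than their spread. Construct 9 carried replicate 1 of the first group and constructs 4 and 6 carried replicate 3 of the second.

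Partial and whole-window fragments differed by less than their spread in retina. RNA was seen for 11 of 23 fragments with part of the window and for 6 of 13 with all of it. The RNA share was 0.314 ± 0.206 times the DNA share for partial and 0.317 ± 0.238 for whole-window fragments (SD, n = 3). Without construct 28 the whole-window value was 0.0295, 0.391 and 0.0013 in the 3 replicates. Constructs 23 and 25 gave nearly all of replicate 2, and both other values lay below those of the other B constructs.

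Fragments centred on the low-coordinate side of the window gave more retina RNA than those centred beyond its middle. The RNA share was 0.432 ± 0.108 times the DNA share for the 29 on the low side and 0.0324 ± 0.0288 for the 7 on the high side (SD, n = 3), and every low-side value lay above every high-side value. RNA was seen for 15 of 29 and 2 of 7. Construct 28 lay on the low side, which without it had a mean of 0.341 ± 0.0658 (SD, n = 3). Different constructs carried that value in each replicate. Construct 9 gave 993 of 1012 RNA counts in replicate 1. In replicate 2 constructs 23 and 25 gave 736 and 651 of 1720. In replicate 3 constructs 4 and 6 gave 1030 and 921 of 2328. All high-side RNA came from constructs 33 and 37, and construct 33 had much of the DNA there. The high side without construct 33 was not computed, and the difference between the sides was not tested. By strand, RNA was seen for 11 of 21 minus and 6 of 15 plus constructs. The RNA share was 0.334 ± 0.172 times the DNA share on the minus and 0.239 ± 0.195 on the plus strand (SD, n = 3), and the order of the strands changed between replicates.

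In cortex B141 gave less RNA per DNA than the sum of the other B constructs. The B class had the highest RNA/DNA in that tissue, and RNA against DNA of B141 was tested there on values that had no part in its choice. Its difference from the other B constructs was not tested. The 35 constructs held 3203, 3049 and 6210 RNA counts in replicates 1 to 3, beside 4306, 12200 and 9032 DNA counts. The RNA share was 0.748, 0.511 and 0.576 times the DNA share, a mean of 0.612 ± 0.122 (SD, n = 3), while it was 1.66 ± 0.0777 for the other B constructs, 0.795 ± 0.0251 for H and L constructs and 0.818 ± 0.0257 for R constructs. All 3 values of B141 lay below every value of the other B constructs and of H and L constructs. In the edgeR region fit B141 had a log2 RNA/DNA of -0.34 (SE 0.22, quasi-likelihood test, adjusted p = 0.629), which does not pass. The median region lay at -0.09 and the median B region at 0.04. B141 ranked 337 among 461 B regions and 1435 among 2108 regions. Higher RNA was called for 63 regions, 2.99% of those tested. Under the other settings the value lay between -0.71 and -0.19, with adjusted p between 0.0933 and 0.867. The difference between retina and cortex in the joint region fit was 2.25 (SE 0.49) on the log2 scale, where the median region lay at -1.80, and it was the highest of 431 B regions. Over all regions 8.35% were called higher in this difference and 5.0% lower. It is given without a test, since its retina part was used to choose the site, and with total library size it was -1.0 with the median region at -5.05.

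Cortex RNA was seen for 30 of the 35 constructs, 85.7%, beside 87.5% of all constructs. It was in all 3 replicates for 11, or 31.4%, beside 32.7% of all constructs. Both shares lay near those of the whole library. No B141 construct passed the edgeR construct test in either direction, with adjusted p between 0.0946 and 0.993. Over all constructs 258, or 0.665%, were called higher and 3, or 0.00773%, lower. An unadjusted p under 0.05 was found for 8 of the 35, all with RNA lower, beside 18.8% of all constructs in either direction. DESeq2 called 1 of the 35 higher, beside 2.79% of all constructs, and 14 lower, beside 46.6%. Without the replicate block edgeR called 7 of the 35, all lower, beside 16.5% of all constructs. The counts of lower constructs lay near these shares.

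Construct 23 had the highest RNA/DNA in cortex. It had 223, 399 and 506 RNA counts in the cortex replicates beside 76, 213 and 170 DNA counts, so its RNA share was 2.95, 3.83 and 2.49 times its DNA share, a mean of 3.09 ± 0.68 (SD, n = 3). All 3 values lay above 1. Its edgeR log2 RNA/DNA was 2.03 (SE 1.89, adjusted p = 0.583), which does not pass, and DESeq2 gave 2.25 (SE 0.94, adjusted p = 0.0353). In retina it was the construct with 0, 736 and 1 RNA counts. Construct 28, again with the most DNA, had 762, 1062 and 2645 cortex RNA counts beside 985, 2723 and 1489 DNA counts. Its RNA share was 0.778, 0.798 and 1.49 times its DNA share, with an edgeR log2 of 0.38 (SE 0.54, adjusted p = 0.736). It was the single construct of the site with RNA in all 6 RNA libraries of both tissues. Construct 26 had 10, 351 and 0 cortex RNA counts beside 33, 180 and 78 DNA counts, and construct 15 had 0, 0 and 413 beside 27, 204 and 121. Neither had RNA in retina, and large counts in 1 replicate were thus found in cortex as well.

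Partial fragments gave less RNA than whole-window ones in each cortex replicate. Their RNA share was 0.352, 0.401 and 0.403 times their DNA share, while that of whole-window fragments was 1.02, 0.589 and 0.706. The ratio of partial to whole-window fragments was 0.344, 0.680 and 0.571, a mean of 0.532 ± 0.171 (SD, n = 3). Without construct 28 it was 0.299, 0.869 and 1.04, so the order no longer held in replicate 3. The difference was not tested. Cortex RNA shares were 0.568, 0.563 and 0.680 times the DNA share on the low-coordinate side and 1.25, 0.363 and 0.289 on the high side. The low side was thus above the high side in replicates 2 and 3 and below it in replicate 1, where construct 33 gave 901 of the 1411 high-side RNA counts.

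Of the 34 constructs that passed the DNA minimum in both tissues, 15 had RNA in both, 1 in retina alone, 15 in cortex alone and 3 in neither. The Spearman correlation of summed RNA/DNA between the tissues was 0.23 over these constructs, whereas that of their summed DNA counts was 0.87. All 7 fragments with the lowest starts had cortex RNA, beside 85.7% of B141 constructs and 87.5% of all constructs. In construct 7 it came to 2 counts in 1 replicate. Construct 31, without RNA in retina, had 186, 44 and 92 RNA counts in cortex beside 162, 736 and 658 DNA counts. Construct 38 had 0, 198 and 23 cortex RNA counts and construct 34 had 27, 31 and 0.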

How the data were processed

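Barcodes were counted in RNA and DNA of 3 replicates of retina and 3 of cortex. The authors deposited raw counts per construct, per the file headers. Per the file headers and the values, they also deposited the fraction that each construct takes of all counts past the DNA minimum, the ratio of its RNA to its DNA fraction, and log2 of that ratio after adding 0.001. The deposited mean log2 was recomputed within 5e-10. Shares here use the same denominator. Tools listed without roles in the submitters' processing notes are Bowtie2 2.1.0, bedtools 2.22.1, SAMtools 0.1.19 and FastQC, with build mm9. The construct table was deposited in 2 identical copies and used once. Starts count from 0 there and from 1 here.

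Counts were fitted as RNA against DNA by the robust quasi-likelihood test of edgeR 4.0.16 (R 4.3.3), scaled by trimmed mean of M values, with Benjamini-Hochberg adjustment over all features and a threshold of 0.05, for constructs with at least 10 counts in each DNA library and for regions of at least 5 such constructs. Replicate entered as a block: per the labels, both molecules of 1 replicate were taken from shared tissue. Deviations of same-numbered RNA and DNA libraries correlated between -0.02 and 0.013, and those of differently numbered ones between -0.023 and 0.021. These values thus did not show the pairing, which rests on the labels. Standard errors were derived from the log2 fold and its F value. DESeq2 1.42.0, other scalings, DNA minimums, no block and each replicate left out were alternatives. Scripts were tested on simulated data. Python 3.11.15, numpy 2.4.6, scipy 1.17.1 and pandas 2.3.3 did the rest.

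Constructs named are the 8 highest summed RNA/DNA in retina (prior count 2), any other with RNA in all retina replicates, the 3 with most DNA and no RNA there, and the 4 highest in cortex. Others are named for a stated reason after their values were seen. The members, lists and groupings were chosen with earlier results of these data known. Precision is limited by 3 replicates and by counts per construct, and no genome of the build was used.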

Additional observations from a re-analysis of the deposited data

How the results depend on the processing

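The cortex region value kept its sign and stayed short of the threshold under all 10 alternatives, and -0.50 to -0.19 was its range with 1 replicate left out. In retina the region value was 1.70 to 1.93 with 1 replicate left out, -1.74 with total library size, where B141 was called lower, and 2.39 without the construct with most RNA in each region. The retina minus cortex value was 2.09 to 2.37 with 1 replicate left out and -1.0 with total library size. The scaling shifts all regions together, and with it 89 retina regions were called higher and 924 lower, in place of 179 and 3. The share ratio of B141 in retina was 0.231 without construct 28, and 0.275 to 0.345 with 1 replicate left out. Without the 2 constructs with most DNA, a setting chosen after the data were seen, it was 0.457 in cortex, in place of 0.612. RNA in both remaining retina replicates was found for 2 to 4 constructs when 1 replicate was left out, in place of 1 over all 3.

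The count of B141 constructs called in cortex was 0 in edgeR, 7 without the replicate block and 15 in DESeq2, and 0 with any replicate left out. With a replicate left out, 0 B141 constructs had an edgeR unadjusted p under 0.05, beside 8 in the main fit. Over all constructs 461 to 874 had one, beside 7294 in the main fit, so the 0 calls there say little about stability. The main fit called 258 cortex constructs higher and 3 lower, against 485 and 6420 without the block and 1085 and 18087 in DESeq2. The cause was not tested. Without the block the region calls of B141 in retina and cortex were as with it, and the retina construct fit was not run without it. The median construct log2 RNA/DNA of B141 moved with the prior count in both tissues. RNA was lacking for 19 of 36 constructs in retina and for 5 of 35 in cortex. In retina it was -5.22 with a prior of 2, -6.97 with 0.5 and -3.22 with 10, and -5.78 to -5.07 with 1 replicate left out. In cortex it was -3.27, -4.02 and -2.07. The all-construct medians with a prior of 2 were -5.48 in retina and -2.67 in cortex. Differences between constructs below the floor of 3 counts were not detectable at this depth.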

Other observations

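Construct 21 had 701 reads linking its barcode to its fragment and no DNA count in any of the 6 DNA libraries of both tissues. Of the 1436 constructs with at least as many linking reads, 10 had no DNA count, or 0.696%, beside 1.28% of all 45670 constructs. Construct 31 had the most linking reads of the site, 990, and the third highest DNA in retina.

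Both B141 constructs with the most DNA, 28 and 33, carry barcodes that begin with a run of 5 and 7 C. Barcodes that begin with at least 5 C had a median of 609.5 summed retina DNA counts over 366 constructs, beside 558 over all 36005, and RNA in all 3 retina replicates for 7.65% of them, beside 5.99%.

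Cortex RNA was also counted for 2 constructs below the DNA minimum there. Construct 36 had 198, 0 and 0 RNA counts beside 9, 110 and 71 DNA counts, and construct 13 had 26, 33 and 0 beside 54, 208 and 0.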
